A study of Mus musculus with 6 samples.

Results

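The genes described here are 8 channel and pump genes of the ventricle wall, out of 47643 genes listed for each sample. They are the water channel genes Aqp4, Aqp1 and Aqp9, the inward rectifier potassium channel genes Kcnj10 and Kcnj16, and the sodium pump beta subunit genes Atp1b1, Atp1b2 and Atp1b3. They were taken by gene name for their known roles. Kcnj10 was also chosen by its measured values, namely its higher level in the knockout libraries, so its difference between genotypes is given as a description without a test. RNA came from ependymal cells of the adult mouse subventricular zone (SVZ), the stem cell niche in the wall of the lateral ventricle. In the conditional knockout mice (Ccn1cKO, here CKO, 3 samples), tamoxifen induced a recombination that deleted Ccn1, a gene of a secreted matrix-associated protein, and switched on GFP in ependymal cells. The control mice (Ctrl, here CTR, 3 samples) kept Ccn1. Cells of both genotypes were collected 2 days after tamoxifen by flow sorting on GFP, with the gate set by hand against wild-type cells. No label names the driver of the recombinase or the age beyond adult, and none ties a sample to separate animals, so p-values measure only the spread between these samples, which may be technical.

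Ependymal cells carry ions and water between the cerebrospinal fluid and the brain tissue below them. AQP4 is the water channel of astrocyte endfeet and of ependymal basolateral membranes, AQP1 is that of the choroid plexus epithelium and of red blood cells, and AQP9 also passes glycerol. Kcnj10 encodes Kir4.1, a potassium channel that sets the resting potential of glia and takes up potassium, and Kcnj16 encodes Kir5.1, which forms channels together with Kir4.1. The sodium pump exchanges sodium for potassium. Its alpha subunit is the catalytic part and its beta subunit, one of the products of Atp1b1 to Atp1b3, is needed for folding and for delivery to the membrane.

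Each library held 13401499 to 15689579 estimated counts. Ccn1, the targeted gene, had 411, 238 and 524 counts in the CKO libraries, against 1665, 2037 and 2224 in CTR libraries, so each library went with its label. All 12 ependymal markers were detected, with a summed level of 26695 to 27856 TPM in CKO libraries and 26097 to 30391 TPM in CTR libraries (TPM corrects for transcript length and sums to the same total in every library). The 12 astrocyte markers summed to 1318 to 1610 TPM in CKO and 1244 to 2556 TPM in CTR, and the 12 choroid plexus markers to 687 to 1300 TPM in CKO and 754 to 1054 TPM in CTR. The choroid plexus sum includes the potassium channel gene Kcnj13. In CKO 3 that sum was mostly Folr1 at 297 TPM and Calml4 at 265 TPM, with Ttr at 0.251 TPM. Endothelial markers summed to at most 3.83 TPM in CKO and 0.0141 TPM in CTR, and Pecam1, Cldn5 and Cdh5 were at 0 counts in every library. Fewer cells of a type and less RNA per cell cannot be told apart in these bulk samples.

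The count and the TPM of a gene together give the average length of the transcripts behind its counts, which can be set beside the annotated transcripts (GENCODE M21). This holds if the TPM of a gene is the sum over its transcripts, which the sources used do not state and which genes with 1 transcript cannot test. The lengths of genes with several transcripts rest on that assumption. The scale was set on 767 to 820 genes per library with 1 annotated transcript, of which 83.0% to 85.3% came out within 10 bases of their annotated length. Kcnj10 came out at 5407 bases in all 6 libraries, the length of its 1 annotated transcript. Kcnj10 was itself among the genes that set the scale, so this match is no check and says nothing on transcript choice. Kcnj16 came out at 3671 bases in all 6, the length of transcript Kcnj16-201, although 6 transcripts of 424 to 3701 bases are annotated. Kcnj16-205, at 3678 bases, also lies within 10 bases of that value. The length alone therefore does not settle which Kcnj16 transcript was counted. Atp1b1 came out at 2580 bases, Atp1b2 at 2842 and Atp1b3 at 1994 in every library, the lengths of Atp1b1-201, Atp1b2-201 and Atp1b3-201. The longest annotated Atp1b2 transcript, a noncoding one, has 3751 bases. Aqp4 came out at 5082 bases in all 6 libraries, 28 bases over Aqp4-201, while its other 10 annotated transcripts are 453 to 1511 bases long. The CKO and CTR libraries did not differ in any of these 6 lengths by as much as 1 base. For Kcnj10, with 1 annotated transcript, that was given in advance. Among all 4873 genes with at least 2 annotated transcripts and 100 counts in each library, 61.9% had lengths that ranged by under 1% over the libraries, so a fixed length is common.

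The 250 bases before the start of these transcripts are shown for the potassium channel pair and for pump subunits (RefSeq, GRCm38.p6), to set the window of Kcnj10 beside that of its partner gene. Kcnj16 has 4 starts in that table, of which the one of Kcnj16-201 was taken. That choice rests on the match in length above. A RefSeq entry was found for 6 of the 8 genes, Aqp4 and Atp1b2 being the others. Capitals mark 3 promoter motifs, each searched on both strands. The GC box was spelled GGGCGG, the second motif was the CCAAT box by its own letters, and the TATA box was spelled TATAAA. The Kcnj10 window lies at chr1:172340960-172341209 on the plus strand, the Kcnj16 window at chr11:110997237-110997486 on the plus strand, the Atp1b1 window at chr1:164458356-164458605 on the minus strand and the Atp1b3 window at chr9:96364432-96364681 on the minus strand.
Kcnj10: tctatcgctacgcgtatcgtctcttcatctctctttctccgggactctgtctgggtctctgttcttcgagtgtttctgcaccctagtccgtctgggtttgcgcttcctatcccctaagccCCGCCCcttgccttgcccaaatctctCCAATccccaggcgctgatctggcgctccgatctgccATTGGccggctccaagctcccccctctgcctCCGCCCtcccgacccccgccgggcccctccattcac
Kcnj16: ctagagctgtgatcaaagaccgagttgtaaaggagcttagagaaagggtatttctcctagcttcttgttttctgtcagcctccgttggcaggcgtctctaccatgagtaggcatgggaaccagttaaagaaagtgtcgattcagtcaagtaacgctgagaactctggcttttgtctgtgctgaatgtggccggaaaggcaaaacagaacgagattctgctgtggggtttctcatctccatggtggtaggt
Atp1b1: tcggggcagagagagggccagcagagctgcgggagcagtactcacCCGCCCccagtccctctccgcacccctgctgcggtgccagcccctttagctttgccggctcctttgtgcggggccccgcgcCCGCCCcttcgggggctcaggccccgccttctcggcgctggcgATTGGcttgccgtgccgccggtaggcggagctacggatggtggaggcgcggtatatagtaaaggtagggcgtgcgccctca
Atp1b3: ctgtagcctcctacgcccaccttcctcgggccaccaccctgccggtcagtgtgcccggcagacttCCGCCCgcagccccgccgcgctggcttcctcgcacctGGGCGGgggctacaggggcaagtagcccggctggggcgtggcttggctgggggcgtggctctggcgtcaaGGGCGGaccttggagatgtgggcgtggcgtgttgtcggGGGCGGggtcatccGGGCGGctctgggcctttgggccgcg
The Kcnj10 window held 2 GC boxes and 2 CCAAT boxes, with a GC content of 62.0% and 17 CpG dinucleotides. The Kcnj16 window held none of the 3 motifs, with 47.6% GC and 7 CpG. The Atp1b1 window held 2 GC boxes and 1 CCAAT box at 70.4% GC, and the Atp1b3 window 5 GC boxes at 73.6% GC, each with 24 CpG. Of all 32851 windows of this length in the table, 32.7% held a GC box, 33.8% a CCAAT box and 12.4% a TATA box, and the median window had 52.4% GC and 6 CpG. These matches are letters in a window and not shown to be sites. The Atp1b3 start of the table lies 11 bases from the start of Atp1b3-201, and for the other 3 genes the starts are the same base.

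Aqp4 made up nearly all of the aquaporin transcripts of these cells. It stood at 164, 227 and 244 TPM in CKO libraries, against 222, 266 and 237 TPM in CTR libraries. The groups overlapped, with CKO 1 the lowest of the 6. On the count scale, edgeR's quasi-likelihood test gave a log2 difference of -0.19 ± 0.17 (SE, n = 3 each, 95% interval -0.59 to 0.21), with a Benjamini-Hochberg adjusted p of 0.99999 over all 11574 genes tested. Aqp4 (GRCm38 chromosome 18, 15389496 to 15410982, minus strand) took 97.3% ± 1.93 of the summed aquaporin TPM in CKO and 98.9% ± 0.384 in CTR (SD, n = 3 each), and 735 of the listed genes had a higher mean TPM.

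Aqp1 had 0 counts in all 6 libraries. A level of 3 counts, the limit that a count of 0 allows, corresponds to 0.216 to 0.224 CPM, the count scaled to the library total, in CKO libraries and 0.191 to 0.219 CPM in CTR libraries, for counting error only. Aqp1 is the water channel of the choroid plexus, and the 3 most abundant choroid plexus markers had unlike patterns while Aqp1 was at 0. The folate receptor gene Folr1 stood at 421, 375 and 297 TPM in CKO libraries and 515, 412 and 558 TPM in CTR libraries. Calml4, a calmodulin-like gene, stood at 414, 268 and 265 TPM in CKO and 172, 303 and 273 TPM in CTR. Ttr, which encodes transthyretin, varied the most of the 3, at 290, 520 and 0.251 TPM in CKO and 5.29, 147 and 148 TPM in CTR. Slc4a5 and Kcne2, also choroid plexus markers, were at 0 in every library. Aqp1 is also a red cell gene, and the CKO 2 library held 185 TPM of haemoglobin and other red cell markers with Aqp1 at 0. Aqp9 was listed at 2 counts in CKO 3, at 0 in CKO 1 and CKO 2 and at 0 in all CTR libraries, so it was not detectable beyond that floor. Of the 9 other aquaporin genes, 5 were at 0 in every library. Aqp11, an aquaporin of intracellular membranes, stood at 1.40, 3.69 and 3.05 TPM in CKO and 0, 0 and 1.25 TPM in CTR (edgeR log2 difference 2.75 ± 2.54, adjusted p = 0.99999). Without CTR 3, the only CTR library with Aqp11 counts, the fitted log2 difference was 9.89. With CTR then at 0 counts, the size of that value is set by the fitting and is not a measured fold. Over the alternatives with all libraries the Aqp11 difference ran from 1.45 to 6.91. All CKO values of Aqp11 lay above all CTR values, which was so in CPM for 4.99% of all genes tested. With counts in CTR 3 alone among CTR libraries, Aqp11 reached the test through its CKO counts.

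Kcnj10, the Kir4.1 gene, stood at 25.1, 22.0 and 25.3 TPM in CKO libraries, against 11.0, 15.1 and 14.1 TPM in CTR libraries. All 3 CKO libraries were above all 3 CTR libraries. The SD was 7.61% of the mean in CKO and 15.8% in CTR. The estimated counts were 1626, 1339 and 1647 in CKO and 849, 918 and 987 in CTR. The mean was 24.2 ± 1.84 TPM in CKO and 13.4 ± 2.12 TPM in CTR (SD, n = 3 each), and the log2 difference on the count scale was 0.86. This is the difference that helped to choose the gene, and CKO values lay wholly above CTR values for 4.99% of the 11574 genes tested. Kcnj10 lies on chromosome 1 from 172341210 to 172374085 (GRCm38, plus strand), and no other annotated gene overlaps it.

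Kcnj16, whose product pairs with Kir4.1, showed no such separation of the genotypes. It stood at 20.5, 25.7 and 52.3 TPM in CKO libraries, against 33.4, 27.6 and 23.3 TPM in CTR libraries. CKO 3 was the highest and CKO 1 the lowest of all 6, so the CTR values lay within the CKO range. The edgeR log2 difference was 0.22 ± 0.42 (SE, 95% interval -0.76 to 1.20, adjusted p = 0.99999), and it turned to -0.33 without CKO 3. Kcnj16 was above Kcnj10 in 5 of 6 libraries. The ratio of Kcnj10 to Kcnj16, in TPM, was 1.23, 0.857 and 0.484 in CKO libraries and 0.330, 0.546 and 0.604 in CTR libraries, and the groups overlapped through CKO 3.

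The next inward rectifier by level was Kcnj13, which encodes Kir7.1, a channel of the choroid plexus. It stood at 46.8, 42.9 and 0.0794 TPM in CKO libraries and at 0, 19.4 and 0 TPM in CTR libraries. It was thus above Kcnj10 in 3 of the 6 libraries and at or near 0 in the other 3. Of the choroid plexus markers given above, Ttr was high in those 3 libraries but also in CTR 3, where Kcnj13 was at 0, and Folr1 was highest in CTR 1 and CTR 3, both with Kcnj13 at 0. The part of choroid plexus RNA in the Kcnj13 values was not tested. With Kcnj13 counted in, Kcnj10 took 28.0% ± 4.18 of the summed inward rectifier TPM in CKO and 28.3% ± 8.06 in CTR, and Kcnj16 took 39.2% ± 24.4 in CKO and 59.5% ± 16.6 in CTR. Of the 13 inward rectifier genes besides Kcnj10 and Kcnj16, 7 were at 0 counts in every library, and only Kcnj13 had enough counts for the test (edgeR log2 difference 2.26 ± 2.66, adjusted p = 0.99999). Without CTR 2, the only CTR library with Kcnj13 counts, the fitted log2 difference was 11.58. With CTR then at 0 counts, the size of that value is set by the fitting and is not a measured fold. Over the alternatives with all libraries the Kcnj13 difference ran from 2.26 to 4.63.

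**Figure D1:**
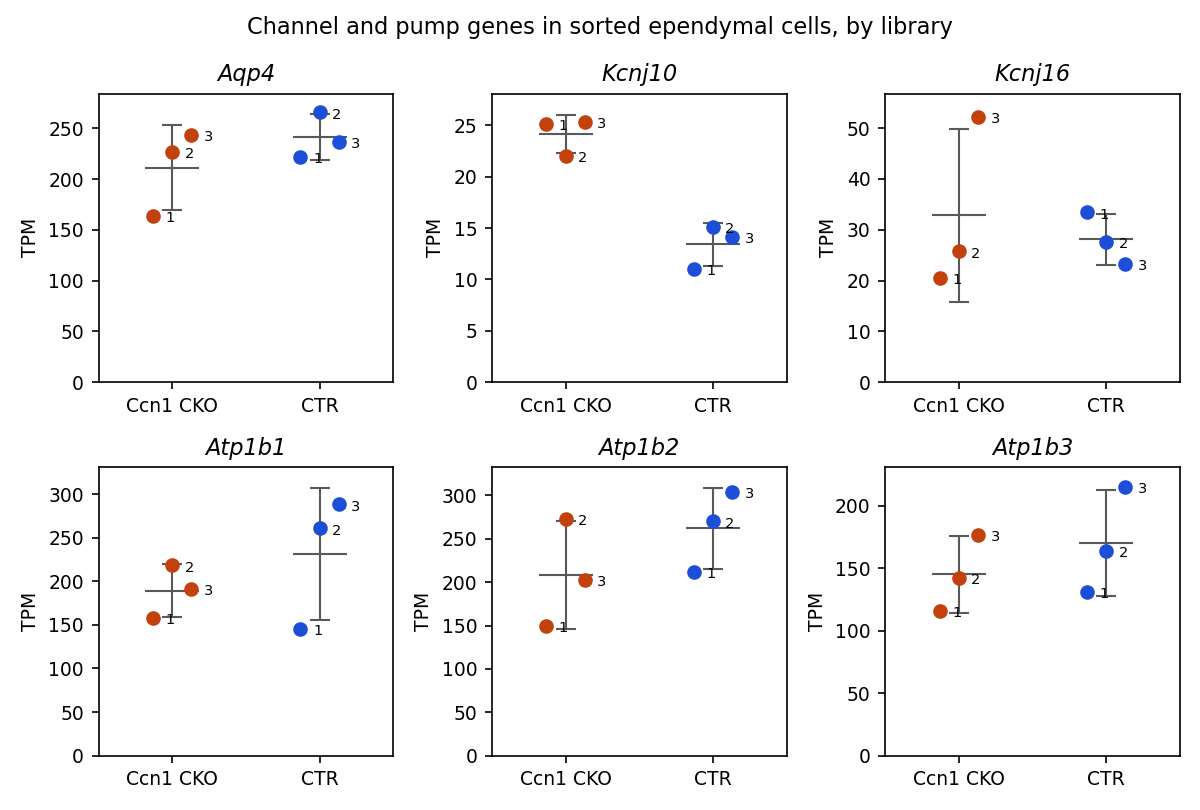
TPM of 6 channel and pump genes in each library (y axis from 0), with Ccn1 CKO in orange and CTR in blue. Points are libraries numbered by replicate, and the grey bar and whiskers are the mean and SD of 3. The CKO points of Kcnj10 sit at 22.0 to 25.3 TPM, above the CTR points at 11.0 to 15.1 TPM, and the groups overlap in the other 5 panels.

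The 3 pump beta subunit genes were all strongly expressed and close to each other. Atp1b2, the glial form first described as an adhesion molecule, stood at 149, 273 and 203 TPM in CKO libraries, against 212, 270 and 304 TPM in CTR libraries. Atp1b1, the most widespread form, stood at 158, 218 and 192 TPM in CKO, against 146, 261 and 288 TPM in CTR. Atp1b3 stood at 116, 143 and 177 TPM in CKO, against 131, 164 and 215 TPM in CTR. The groups overlapped for each gene, CTR 3 was the highest library for all 3, and the lowest was CKO 1 for Atp1b2 and Atp1b3 and CTR 1 for Atp1b1. Atp1b4 was at 0 in every library. The beta genes summed to 423, 634 and 571 TPM in CKO libraries and 489, 695 and 808 TPM in CTR libraries, with overlapping groups.

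In shares of the summed beta TPM, Atp1b2 took 38.0% ± 4.46 in CKO and 40.0% ± 3.02 in CTR (SD, n = 3 each). Atp1b1 took 35.1% ± 2.02 in CKO and 34.3% ± 4.06 in CTR, and Atp1b3 took 26.9% ± 4.28 in CKO and 25.7% ± 1.82 in CTR. Atp1b3 was below both others in 6 of 6 libraries. Atp1b2 was above Atp1b1 in 5 of 6, with a ratio of 1.08 ± 0.156 in CKO and 1.18 ± 0.238 in CTR, so these neighbours did not differ beyond the spread between libraries. The mean share of each subunit differed between genotypes by less than either SD. The edgeR log2 differences were -0.33 ± 0.22 for Atp1b2 (SE, 95% interval -0.85 to 0.19), -0.27 ± 0.24 for Atp1b1 (-0.82 to 0.27) and -0.21 ± 0.24 for Atp1b3 (-0.77 to 0.34), each with an adjusted p of 0.99999. Nme7, a gene on the opposite strand, overlaps Atp1b1 by 617 bases and had 2011 to 2468 counts in CKO and 2471 to 4690 in CTR. No label says whether strand was used in counting.

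**Figure D2:**
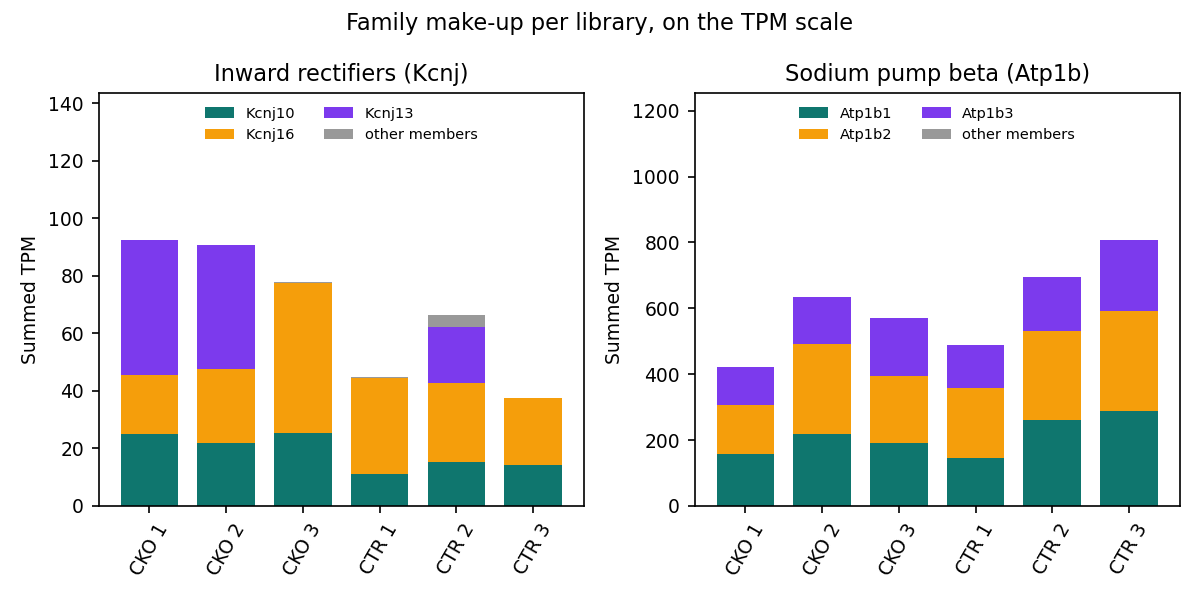
Summed TPM of the inward rectifier and pump beta gene families in each library (stacked bars from 0, CKO libraries left of CTR libraries). The inward rectifier bars of CKO 1, CKO 2 and CTR 2 contain Kcnj13 at 19.4 to 46.8 TPM, while the beta bars keep Atp1b3 as their smallest part in all 6 libraries.

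The library order of the pump genes ran with that of astrocyte markers for some genes. CTR 3 had the highest astrocyte marker sum, 2556 TPM, and the highest Atp1b1, Atp1b2 and Atp1b3. CTR 1 had the lowest sum, 1244 TPM, and the lowest Atp1b1, while Atp1b2 and Atp1b3 were lowest in CKO 1. Not every astrocyte marker kept the order of the sum. S1pr1, picked here because it did not, was highest in CTR 1 at 52.4 TPM and stood at 29.2 TPM in CTR 3. Of the 10 astrocyte markers tested, 1 was higher and 9 were lower in CKO, where 5751 of all 11574 genes tested were lower. Of these 10 markers edgeR called 0, with 0 at an unadjusted p under 0.05. DESeq2, which called 1.63% of 12133 genes, called 1 of the markers, the growth factor receptor gene Fgfr3 (adjusted p = 0.025). It stood at 2.95, 2.64 and 2.01 TPM in CKO and 7.87, 7.67 and 6.21 TPM in CTR. Fgfr3 is named because of that call, after its values were seen. Aldoc, an aldolase gene and the most abundant of them, stood at 758, 812 and 977 TPM in CKO and 802, 781 and 1597 TPM in CTR. Aldoc made up most of the astrocyte marker sum in every library except CTR 2, where that sum was 1626.5 TPM. The astrocyte gene Gfap stood at 104, 177 and 191 TPM in CKO and 84.6, 230 and 307 TPM in CTR, and Slc1a3, a glutamate transporter gene of glia, at 228, 246 and 227 TPM in CKO and 159, 347 and 335 TPM in CTR. Agt and Gjb6, further astrocyte genes picked here for their zeros, each had 0 counts in 4 of the 6 libraries. The part of astrocyte RNA in the pump gene values was not tested. Fxyd1, the gene of phospholemman, a small regulator of the pump, was more abundant than any of the 8 genes. It stood at 1312, 1242 and 1546 TPM in CKO and 1560, 1306 and 1692 TPM in CTR, and took 98.4% ± 0.559 of the FXYD gene TPM in CKO and 99.5% ± 0.245 in CTR (edgeR log2 difference -0.18 ± 0.20, adjusted p = 0.99999).

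Across the fit of all genes, 0 of 11574 genes (0%) passed the edgeR quasi-likelihood test at an adjusted p of 0.05, with 318 (2.75%) at an unadjusted p of 0.05. Ccn1, the deleted gene, did not pass either, at a log2 difference of -2.22 ± 0.38 (SE, edgeR adjusted p = 0.99999). DESeq2 called Ccn1 (adjusted p = 4.1e-06). An exact permutation test of Ccn1 over samples gave p = 0.1, the smallest value possible with 20 assignments of the samples. A gene that edgeR did not call here is thus not shown to be unchanged. Of the 8 channel and pump genes, 6 had enough counts to be tested, and Aqp1 and Aqp9 did not. Of the 5 tested besides Kcnj10, 0 passed, 1 was higher and 4 were lower in CKO, and 0 had an unadjusted edgeR p under 0.05. DESeq2, which called 198 genes (1.63% of 12133), and limma-voom, which called 0, also called 0 of these 5. The median log2 difference of the 5 was -0.21, against 0.0044 over all genes tested. Of the genes averaging 1000 to 2000 counts, as Kcnj10 and Kcnj16 do, 0.0762% fell to 3 counts or fewer in some library. Of those averaging 50 to 100 counts, as Aqp11 does, 85.8% did, so the values of the 6 detected genes rest on firmer counts than that of Aqp11.

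**Figure D3:**
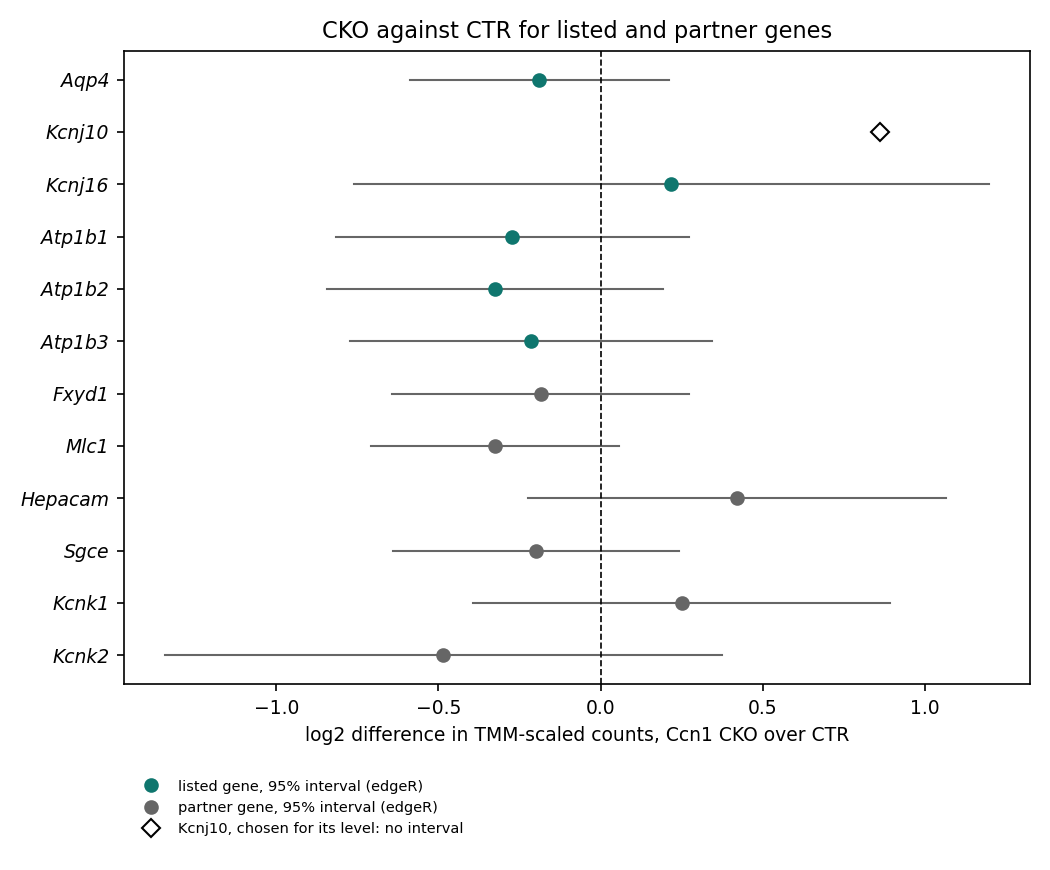
edgeR log2 differences of CKO over CTR in scaled counts (x axis), with 95% intervals, for the channel and pump genes in green and partner genes in grey. The open diamond is Kcnj10 at 0.86, without an interval since the gene was chosen for its level, and each interval drawn holds 0.

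The proteins that hold AQP4 and Kir4.1 in the membrane belong to the dystrophin complex, and their genes showed no common direction. Of 15 listed genes 12 were tested, 6 higher and 6 lower in CKO, with a median log2 difference of 0.040 and 0 called by edgeR. The most abundant was Mlc1, a glial membrane protein gene, at 283, 357 and 274 TPM in CKO and 290, 434 and 428 TPM in CTR (log2 difference -0.33 ± 0.16, adjusted p = 0.99999). Sgce, the epsilon sarcoglycan gene, stood at 228 ± 37.2 TPM in CKO and 265 ± 11.5 TPM in CTR, and Hepacam, whose product binds MLC1, at 79.7 ± 13.4 TPM in CKO and 59.5 ± 19.5 TPM in CTR.

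The transcripts of Dmd and Dtna, which encode dystrophin and dystrobrevin of the same complex, differed in average length from library to library. The average Dmd transcript was 7129, 6023 and 5280 bases long in CKO libraries and 2268, 6423 and 4448 bases in CTR libraries, between annotated lengths of 369 and 14910 bases. The average Dtna transcript was 2090, 3047 and 3337 bases long in CKO and 4653, 2284 and 6070 bases in CTR. Both sets of values overlapped between genotypes, and both rest on the assumption on TPM above. Dmd and Dtna were singled out after their values were seen.

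**Figure D4:**
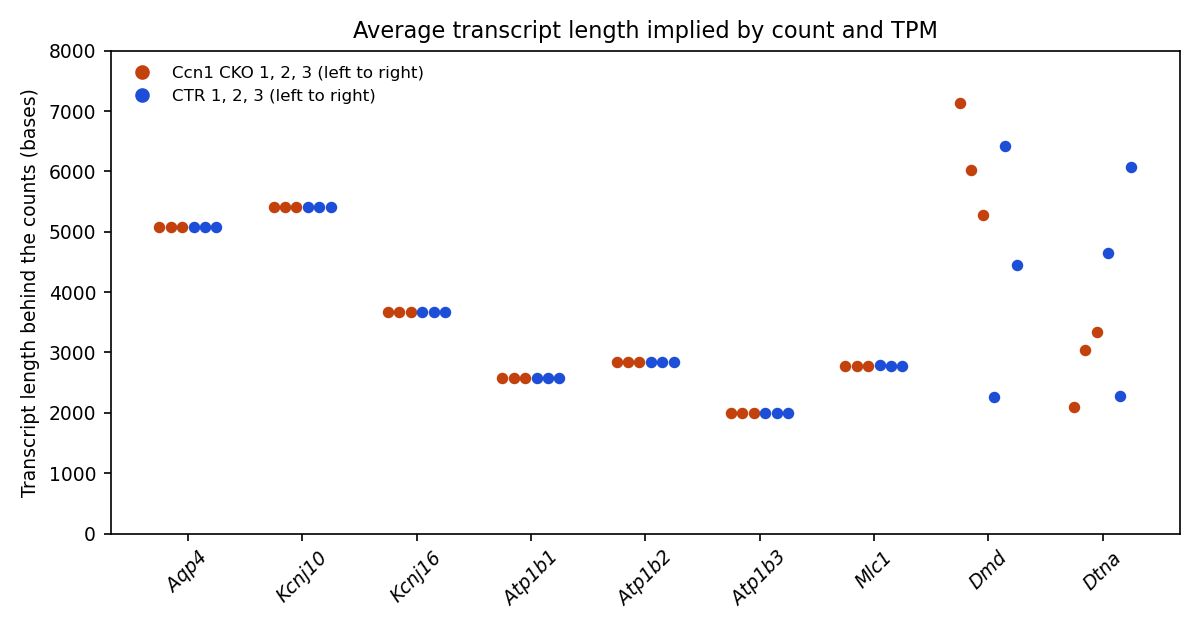
Average transcript length behind the counts, in bases, for channel, pump and anchor genes in each library (CKO 1 to 3 in orange, then CTR 1 to 3 in blue). The channel and pump genes lie on flat lines from 1994 to 5407 bases, while Dmd ranges from 2268 to 7129 and Dtna from 2090 to 6070. The line of Kcnj10, with 1 annotated transcript, was flat in advance.

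The other transporters of ion and water balance were taken from 12 lists of 125 genes, of which 53 were tested. edgeR called 0 of these 53 genes, with 29 higher and 24 lower in CKO and a median log2 difference of 0.17. All 3 CKO libraries lay above all 3 CTR libraries for 3 of them in CPM (5.66%, against 4.99% of all genes tested) and below for 1 (1.89%, against 4.62%). Those above were Aqp11, Lrrc8d and Kcnk1. Aqp11 and Lrrc8d reached the test through their CKO counts, both with 0 counts in CTR 1 and CTR 2, and Kcnk1 overlapped in TPM. Among 2-pore potassium channel genes, which carry leak currents, Kcnk1 stood at 49.0, 48.4 and 45.8 TPM in CKO and 32.1, 41.4 and 47.7 TPM in CTR, and Kcnk2 at 25.6 ± 8.55 TPM in CKO and 33.4 ± 7.17 TPM in CTR. Both genes had higher mean TPM than Kcnj10 in each genotype. For Kcnk2 this did not hold in every library, as it was below Kcnj10 in CKO 1 (23.6 against 25.1 TPM) and CKO 3 (18.2 against 25.3 TPM). Slc9a3r1, the gene of a scaffold for membrane transporters, stood at 101 ± 9.05 TPM in CKO and 83.8 ± 40.7 TPM in CTR. The carbonic anhydrase gene Car9 stood at 70.5 ± 16.9 TPM in CKO and 61.4 ± 17.5 TPM in CTR, and Car2 at 40.4 ± 35.1 TPM in CKO and 43.4 ± 18.5 TPM in CTR. Slc12a2, which encodes the sodium, potassium and chloride cotransporter NKCC1, was low at 3.88 ± 3.56 TPM in CKO and 2.25 ± 1.84 TPM in CTR.

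Lrrc8d, a subunit gene of the volume-regulated anion channel, had the smallest p of these lists. It had 149, 89 and 160 counts in CKO libraries and 0 in each CTR library, which is at least 47.9-fold higher in CKO against a floor of 3 counts per library, a bound that covers counting error only. On log2(TPM + 1), a scale that understates changes of low genes, the difference was 1.95. It did not pass by the edgeR quasi-likelihood test (adjusted p = 0.99999), while DESeq2 called it (adjusted p = 8.5e-06). Lrrc8d lies in the count range where 85.8% of genes fell that low in some library. Its counts were enough for the edgeR test only through the CKO libraries, and it was named for its p. The bound and the p-values are thus a description and not support for a difference. The obligatory subunit gene Lrrc8a stood at 17.9, 12.3 and 14.8 TPM in CKO and 8.77, 28.8 and 28.4 TPM in CTR.

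Over the 6 libraries, the genes nearest to Aqp4 and to Kcnj10 in pattern were sought among the 3480 genes averaging 50 CPM or more, by the root mean square difference of centred log2 CPM. For Aqp4 they included Ppp1r7 at 0.0854 and Ostc at 0.0988, where the median gene was at 0.43. For Kcnj10 they were Arxes2 at 0.171, Arl4a at 0.173 and Pfdn2 at 0.173, where the median gene was at 0.584. Arl4a stood at 404, 289 and 342 CPM in CKO and 210, 257 and 193 CPM in CTR, and all its CKO values lay above its CTR values, which nearness to Kcnj10 by this measure makes likely.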

How the data were processed

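Each sample is 1 library of sorted cells whose title gives genotype and replicate number. Per the submitters' processing notes, CASAVA 1.8, cutadapt 1.11 and kallisto 0.42.5 were used, the last of which shares ambiguous reads between transcripts by estimate. The deposited files list 47643 genes, each with its estimated count and its TPM. The annotation that the authors used is not given in the sources here. Gene IDs without version were looked up in GENCODE M21 (GRCm38), where 99.1% matched. Estimated counts were rounded, filtered by filterByExpr, given TMM factors and tested in edgeR 4.0.16 (quasi-likelihood, robust, genotype only, R 4.3.3), adjusted by Benjamini-Hochberg over 11574 genes at 0.05. The common dispersion was 1.28. DESeq2 1.42.0 and limma 3.58.1 were alternatives. Levels between genes are compared by the deposited TPM, and differences between genotypes by counts. Transcript length was the ratio of count to TPM, calibrated per library on genes with 1 annotated transcript, on the assumption that gene TPM sums over transcripts. That step was chosen with the data in view. The 8 genes and the lists were chosen with earlier results of these data known. The genes named were these 8, the 3 most abundant and the 2 of smallest p per list, the leading markers and Ccn1, of which a part is given. Some further genes that were analysed are not reported here.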

Additional observations from a re-analysis of the deposited data

How the results depend on the processing

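Of the 5 tested channel and pump genes besides Kcnj10, 0 were called under 10 alternatives and 6 fits without 1 library. Over all genes, DESeq2 called 198 (110 higher and 88 lower in CKO) and the other 9 alternatives and the 6 fits without 1 library called 0. Ccn1 stayed lower in CKO, at log2 -2.27 to -2.21 over the alternatives and -2.50 to -1.97 without 1 library. No label says whether the replicate numbers pair the samples. Deviations of same-numbered samples correlated at 0.008, 0.031 and 0.015, with each sample nearest to its own number as a hint from the data only. Correlations this small cannot show whether the samples were paired. A replicate block left 0 genes called, and 232 were at an unadjusted p of 0.05 against 318 without it, and Ccn1 stood at -2.27.

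Shares taken on estimated counts in place of TPM, which counts long transcripts more, were 43.5% for Kcnj10 (28.2% by TPM), 44.4% for Atp1b2 (39.0%), 20.1% for Atp1b3 (26.3%) and 95.4% for Fxyd1 (99.0%).

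Among the named genes, 383 of 394 comparisons with another setting kept side and sign. Lrrc8d passed by DESeq2. Fxyd5 turned to 0.079 by limma-voom, 0.044 on log2(TPM + 0.1) and 0.050 under the replicate block, Slc4a2 to -0.87, -0.51 and -0.13 under the same 3, and Car3 to 0.33 by limma-voom, 0.29 on log2(TPM + 0.1) and 0.22 on log2(TPM + 1) with and without the filter. Leaving out 1 library turned Kcnj16 (-0.33 to 0.47), Kcnk7 (-0.30 to 0.41), Slc12a4 (-0.36 to 1.64), Slc12a2 (-0.28 to 1.27), Stk39 (-0.0076 to 0.21), Wnk1 (-0.33 to 1.92), Wnk2 (-0.20 to 0.77), Slc4a4 (-0.27 to 1.07), Fxyd5 (-0.55 to 0.44), Car2 (-0.94 to 0.43), Lrrc8c (-1.48 to 0.073), Slc9a3r1 (-0.12 to 0.69) and Clcn3 (-1.76 to 0.18). The cause was not tested. The intervals of the 5 genes are wide: for Atp1b2 they reach from -0.85 to 0.19.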
